A study of Homo sapiens with 4 samples.

Results

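The transcripts described here are those encoded by the mitochondrial genome of human multiple myeloma cells, the malignant form of antibody-secreting plasma cells. They were chosen by name, as every gene whose symbol begins with MT-, which gave 37 of the 60612 genes listed: 13 messenger RNAs, 2 ribosomal RNAs and 22 transfer RNAs. RNA was measured in 4 libraries. The established myeloma lines H929 and KMS28BM were each measured in 1 library labelled before sorting and in 1 labelled after it, the sort being done on a microfluidic chip. No other treatment or genotype is labelled, and the sources used here do not say whether a line was a single clone. Values are FPKM, in which fragment numbers are divided by the length of the transcript and the size of the library, and a ratio is the log2 of FPKM plus 1 in the library labelled after sorting minus that in the library labelled before sorting. The series title appears to name the A libraries, which the sample labels place after sorting, as the unsorted ones. Groups follow the sample labels, so that every direction reverses if the title has it right. There was 1 library per group, so differences inside a line could not be checked on replicates and no p-value is attached to them.

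The 2 strands of the mitochondrial genome are transcribed as long precursors from a heavy-strand and a light-strand promoter. The transfer RNAs lie between most of the longer genes and are cut out of the precursors, which frees the messengers and ribosomal RNAs on either side. Most mitochondrial messengers carry short poly(A) tails, which complete the stop codon where the gene ends inside it. Their products are core subunits of respiratory complexes I, III and IV and of ATP synthase, the other subunits of which are encoded in the nucleus. Plasma cells secrete large amounts of antibody, a task that uses ATP. The labels' protocols describe selection on oligo-dT beads, but they also name a poly(A)- beside a poly(A)+ fraction and speak of adipose RNA, so the text may not have been written for these libraries. The values are read here as those of poly(A)-selected RNA. If that is right, ribosomal and transfer RNAs, and any messenger without a tail, were measured only as far as they passed the selection. If not, their levels mean something else.

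All 37 genes matched GENCODE release 29 (GRCh38) by identifier, and coordinates and sequences are given from that release, since the sources used here do not name the human build behind the deposited values. In that annotation 28 genes are read from the heavy-strand promoter and 9 from the light-strand promoter, the latter MT-ND6 and 8 transfer RNAs. The group of 5 adjacent transfer RNAs between MT-ND2 and MT-CO1 is shown first, because it held both the highest and some of the lowest transfer RNA values. MT-TW, which carries tryptophan, is read on the plus strand. MT-TA, MT-TN, MT-TC and MT-TY, which carry alanine, asparagine, cysteine and tyrosine, are read on the minus strand. Each is printed 5′ to 3′ as the DNA letters of its own strand.
MT-TW, chrM:5512-5579, plus strand: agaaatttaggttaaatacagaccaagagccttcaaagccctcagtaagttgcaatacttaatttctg
MT-TA, chrM:5587-5655, minus strand: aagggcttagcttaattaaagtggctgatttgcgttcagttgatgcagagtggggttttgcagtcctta
MT-TN, chrM:5657-5729, minus strand: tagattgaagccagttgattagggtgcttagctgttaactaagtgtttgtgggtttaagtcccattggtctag
MT-TC, chrM:5761-5826, minus strand: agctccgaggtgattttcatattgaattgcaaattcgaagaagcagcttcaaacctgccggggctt
MT-TY, chrM:5826-5891, minus strand: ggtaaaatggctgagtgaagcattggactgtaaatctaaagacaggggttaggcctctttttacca

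Some neighbouring messengers overlap, and the overlaps matter for their levels because a fragment there belongs to both genes. MT-ATP8 runs into MT-ATP6 by 46 bases and MT-ND4L into MT-ND4 by 7 bases, while MT-ATP6 and MT-CO3 share the base at position 9207. The longer overlaps are shown. The capitals below mark the bases that both genes of a pair hold, all on the plus strand.
MT-ATP8 into MT-ATP6, chrM:8507-8592: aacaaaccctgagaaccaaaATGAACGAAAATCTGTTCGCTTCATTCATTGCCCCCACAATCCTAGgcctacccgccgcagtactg
MT-ND4L into MT-ND4, chrM:10740-10786: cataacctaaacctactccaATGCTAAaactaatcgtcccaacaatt

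The annotated gene ends inside the stop codon in 6 of the messengers, MT-ND1, MT-ND2, MT-CO3, MT-ND3, MT-ND4 and MT-CYB. The ends of 3 of them are shown because the poly(A) tail that completes these codons is also what oligo-dT beads select. Capitals mark the bases past the last whole codon, on the plus strand.
3 prime end of MT-ND1, chrM:4234-4262: acaatctccagcattccccctcaaaccTA
3 prime end of MT-CO3, chrM:9963-9990: tatgtctccatctattgatgagggtctT
3 prime end of MT-ND3, chrM:10377-10404: ctacaaaaaggattagactgaaccgaaT

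Depth was read from the step that 1 fragment makes in the FPKM values. It came to 24.8 and 22.8 M fragments (M for mega) in the H929 libraries labelled before and after sorting, and to 21.2 and 23.4 M in those of KMS28BM. All 9 plasma cell markers fixed for the check were at 1 FPKM or more in every library. They summed to 2095 and 1122 FPKM in H929 and to 1982 and 2984 FPKM in KMS28BM. JCHAIN was the largest part of each sum, at 1142 and 589 FPKM in H929 and at 1422 and 2431 in KMS28BM. Of the 9, 7 had ratios below 0 in H929, against 58.3% of all genes, and 2 in KMS28BM, against 40.6%. The H929 library with the lower mitochondrial share, given next, thus also held the lower marker sum, and its part in the results was not tested. The 7 marker lists of other cell types, of 4 genes each, summed to at most 15.9 FPKM, reached by the stromal list in the H929 library labelled before sorting. S100A8, CD3D, FCGR3A, COL1A2, CDH5 and ADIPOQ, of the granulocyte, T and NK cell, monocyte, stromal, endothelial and adipocyte lists, were listed at the floor of 0.0001 FPKM in all 4 libraries. Other genes of these lists were not at 0: in H929 COL6A3 stood at 13.6 and 10.9 FPKM, CD68 at 10.8 and 11.45, CFD at 7.52 and 12.98 and ESAM at 7.00 and 9.61. PDGFRB stood there at 2.21 and 1.98 FPKM, GZMB at 1.48 and 1.87 and GNLY at 0.93 and 1.34. CD14, of the monocyte list, was above the floor in all 4 libraries, from 0.053 to 0.30 FPKM. In KMS28BM HBD, of the erythroid list, stood at 7.16 and 6.57 FPKM. These markers were picked for naming after their values were seen.

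Mitochondrially encoded transcripts made up about the same part of the RNA in 3 of the libraries and a smaller part in the fourth. Their share of the summed FPKM was 26.0% in H929 labelled before sorting, 20.1% in H929 labelled after, 24.0% in KMS28BM labelled before and 24.7% in KMS28BM labelled after. In H929 the share was lower by 5.91 percentage points after sorting, as labelled, and the messengers gave -4.49, the transfer RNAs -0.753 and the ribosomal RNAs -0.667 points of that. In KMS28BM the difference was 0.688 points, and it turned to -0.258 points when each FPKM was weighted by transcript length. In such bulk RNA, fewer cells of a kind and less RNA per cell cannot be told apart. In H929 the share of immunoglobulin genes went the other way, from 5.35% to 6.84%, and in KMS28BM it was 4.51% and 4.01%. Leaving those genes out of the total gave a difference of -5.90 points in H929 and 0.585 points in KMS28BM, so both directions held without them.

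**Figure D1:**
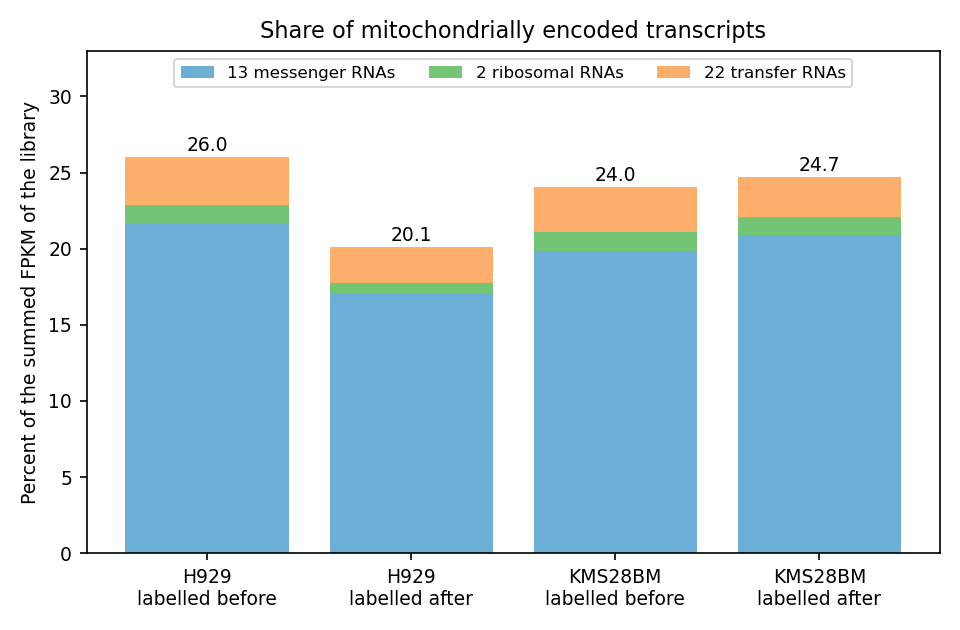
Percent of the summed FPKM of each library held by the 13 messenger, 2 ribosomal and 22 transfer RNAs of the mitochondrial genome, stacked, with the total printed above each bar (1 library per bar, so no error bar). The H929 library labelled after sorting stands at 20.1%, and the other three lie between 24.0% and 26.0%.

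Most of the share came from the messengers, at 21.6% and 17.1% of the summed FPKM in H929, against 19.9% and 20.9% in KMS28BM. The ribosomal RNAs held 1.29% and 0.621% in H929, against 1.24% and 1.17% in KMS28BM. The transfer RNAs held 3.15% and 2.39% in H929, against 2.94% and 2.66% in KMS28BM. Because FPKM divides by length, short genes weigh more in such a sum than in the fragments. With each FPKM multiplied by transcript length, all members together held 11.4% and 8.997% in H929, against 11.6% and 11.4% in KMS28BM, and the transfer RNAs between 0.0902% and 0.121%. Mitochondrial messengers were among the most abundant RNAs of the cells, and between 7 and 8 of the 10 highest genes of every library were members.

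All 37 members were at 1 FPKM or more in every library, so none was lost to a filter. In H929, 36 of them had ratios below 0, against 58.3% of the 11083 genes measured, and the median was -0.43 against -0.11 over all genes. In KMS28BM, 20 of the 37 were below 0, against 40.6% of 10472 genes, and the median was -0.03 against 0.12. A trimmed-mean scaling moved the median of all genes to 0.10 in H929 and to -0.06 in KMS28BM, with 42.6% and 54.7% of all genes below 0. Under it 29 members lay below 0 in each line, so the signs of members near 0 rest on the scaling. At 2-fold or more, 4 members were lower in H929, against 5.17% of all genes, and 0 were higher, against 1.59%. Under the trimmed-mean scaling 1 of the 4 was left, MT-TL2 at -1.01. With the trend in base composition and length, described later, removed, none of the 4 stayed 2-fold lower. The 1 member past 2-fold was then MT-TS1, at -1.05, against -0.98 as deposited. In KMS28BM 1 member was lower, against 1.12%, and 2 were higher, against 4.13%, of which 1 was left under the trimmed-mean scaling. The 4 in H929 were MT-RNR2 and the transfer RNAs MT-TK, MT-TG and MT-TL2, and the 3 in KMS28BM were MT-RNR1, which was lower, and MT-TS2 and MT-TL2, which were higher.

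**Figure D2:**
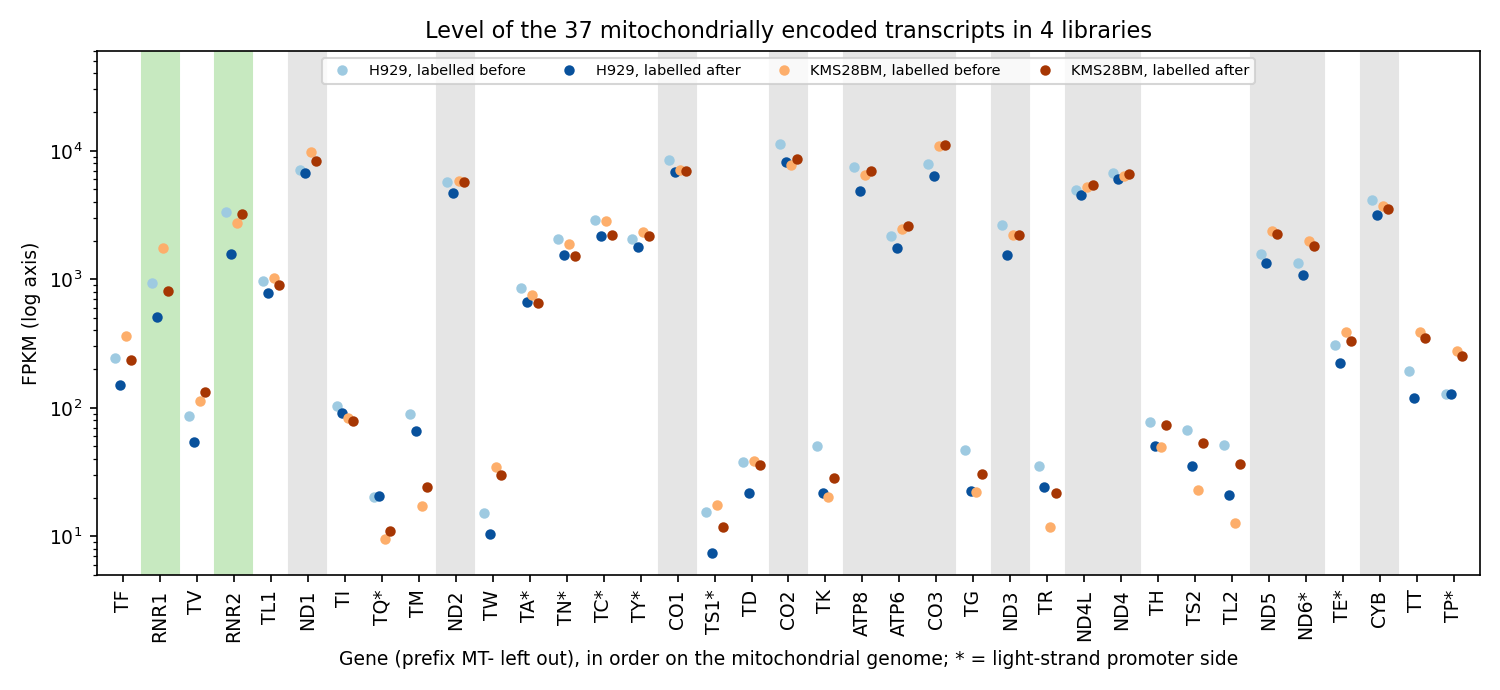
FPKM on a log axis of the 37 mitochondrially encoded transcripts in the 4 libraries, in order along the mitochondrial genome. Grey bands mark messenger RNAs, green bands ribosomal RNAs and white the transfer RNAs, and each point is 1 library. The messengers lie between 1086 and 11287 FPKM, and the transfer RNAs spread from 7.39 to 2896 FPKM with the same genes high in all 4 libraries.

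Messengers of complex I, the NADH dehydrogenase that takes electrons from NADH, held the largest part of the messenger pool, 42.2% and 45.4% of the messenger FPKM in H929, against 46.8% and 44.9% in KMS28BM. MT-ND1, a membrane subunit close to the quinone site, stood at 7137 and 6718 FPKM in H929 and at 9793 and 8396 in KMS28BM. MT-ND4, a proton-pumping subunit, stood at 6726 and 5983 FPKM in H929 and at 6355 and 6622 in KMS28BM. MT-ND2, another pumping subunit, stood at 5734 and 4720 FPKM in H929 and at 5807 and 5689 in KMS28BM. These 3 differed little between the libraries of a line, with ratios of -0.09, -0.17 and -0.28 in H929 and -0.22, 0.06 and -0.03 in KMS28BM. The trimmed-mean scaling turned MT-ND1 in H929 to 0.17, MT-ND4 in H929 to 0.09 and MT-ND4 in KMS28BM to -0.18, so no direction is drawn from these ratios.

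MT-ND3, the smallest of the complex I messengers apart from MT-ND4L and a subunit with a loop near the quinone site, had the lowest messenger ratio in H929. It stood at 2633 and 1557 FPKM in H929, a ratio of -0.76, and at 2193 and 2208 FPKM in KMS28BM, a ratio of 0.01. In H929 it lay at -0.45 from the median of the messengers, and MT-ATP8 came next, at a ratio of -0.61 and -0.31 from that median. With the trend in base composition and length removed MT-ND3 was at -0.47 in H929, beside -0.43 for MT-CO2 and -0.40 for MT-CYB. MT-ND4L, which shares its RNA with MT-ND4, stood at 4985 and 4558 FPKM in H929 and at 5226 and 5429 in KMS28BM. Among the lowest messengers, MT-ND5, the largest pumping subunit, stood at 1582 and 1345 FPKM in H929 and at 2396 and 2271 in KMS28BM. MT-ND6, the messenger of the light-strand promoter, stood at 1343 and 1086 FPKM in H929 and at 1970 and 1807 in KMS28BM. Both were higher in each KMS28BM library than in either H929 library, side by side in tables for which a common normalization is not stated.

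Complex IV, cytochrome c oxidase, reduces oxygen, and MT-CO1 and MT-CO2 hold the metal centres that do so. MT-CO1, the catalytic subunit, stood at 8410 and 6818 FPKM in H929 and at 7022 and 6949 in KMS28BM. MT-CO2, which takes electrons from cytochrome c, stood at 11287 and 8221 FPKM in H929 and at 7775 and 8668 in KMS28BM. MT-CO3, a subunit without a metal centre, stood at 7882 and 6352 FPKM in H929 and at 10906 and 11018 in KMS28BM. The order of these messengers differed between the lines in both libraries of each. MT-CO2 held 15.8% and 14.4% of the messenger pool in H929, against 10.8% and 12.0% in KMS28BM. MT-CO3 held 11.02% and 11.1% in H929, against 15.1% and 15.3% in KMS28BM. For both genes the 2 libraries of a line lay closer to each other than to either library of the other line, which is a description of 1 pair a line and was not tested.

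**Figure D3:**
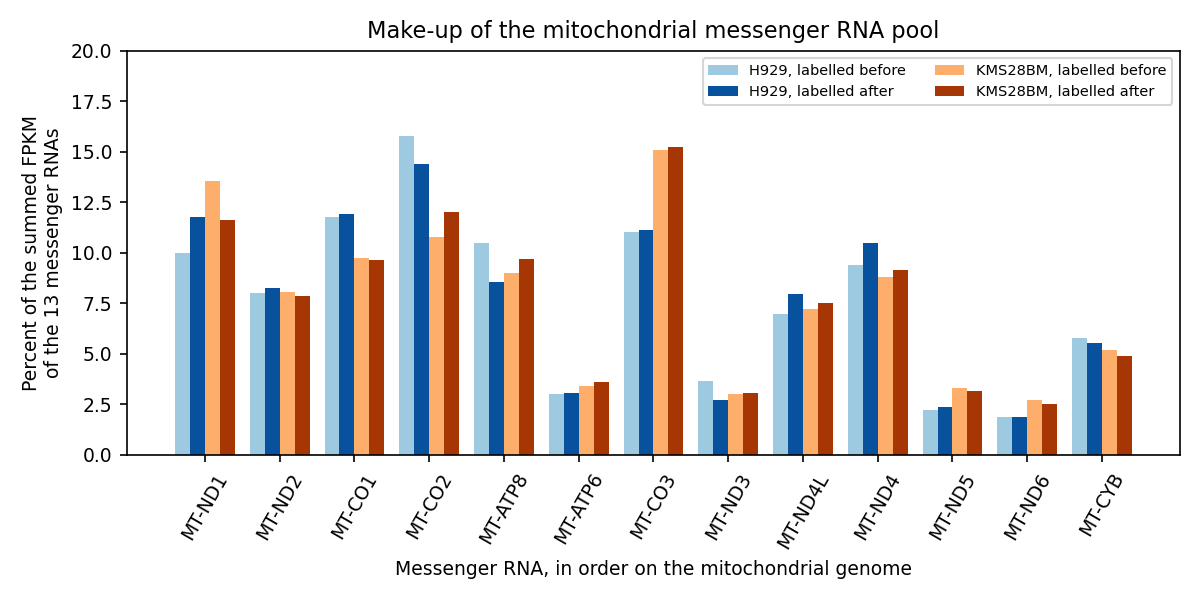
Percent of the summed FPKM of the 13 mitochondrial messengers held by each one, in genome order, with 1 bar per library and no error bar. MT-CO2 is the highest bar of both H929 libraries, at 15.8% and 14.4%, and MT-CO3 of both KMS28BM libraries, at 15.1% and 15.3%.

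MT-CYB, the cytochrome b of complex III and its only mitochondrially encoded subunit, stood at 4128 and 3155 FPKM in H929 and at 3748 and 3524 in KMS28BM. Its ratio was -0.39 in H929 and -0.09 in KMS28BM. The ATP synthase messengers MT-ATP8 and MT-ATP6 encode subunits of its membrane part and lie on 1 RNA, with the shared bases printed above. MT-ATP8 stood at 7485 and 4891 FPKM in H929 and at 6504 and 7010 in KMS28BM. MT-ATP6 stood at 2168 and 1742 FPKM in H929 and at 2463 and 2610 in KMS28BM. Although both are read from 1 RNA, MT-ATP8 was listed 3.45-fold and 2.81-fold above MT-ATP6 in H929 and 2.64-fold and 2.69-fold above it in KMS28BM. The other overlapping pair was nearer to even, with MT-ND4L over MT-ND4 at 0.741 and 0.762 in H929 and at 0.822 and 0.820 in KMS28BM.

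Across the 13 messengers all ratios were below 0 in H929, from -0.76 to -0.09 with a median of -0.31, and 9 of the 13 stayed below 0 under the trimmed-mean scaling, with a median of -0.05. In KMS28BM 6 of the 13 were below 0, from -0.22 to 0.16 with a median of 0.01, and all 13 lay below 0 under that scaling, with a median of -0.23. The messengers are among the most abundant RNAs, so other abundant genes were set beside them. The 108 measured genes outside the members that reached 500 FPKM had a median ratio of 0.18 in H929, with 35 below 0, and of -0.22 in KMS28BM, with 83 below 0. As deposited, the median of the messengers thus lay on the other side of 0 from that of these genes in each line. In KMS28BM the messenger median was only 0.01, and -0.23 under the trimmed-mean scaling, so its side there rests on the scaling. Of the genes outside the members with 35 to 50% GC, the range that holds all 15 longer members, the median was -0.32 over 5465 genes in H929, close to that of the messengers, and 0.42 over 5113 genes in KMS28BM, above it. Ratios moved with base composition and length. A trend in both, fitted on protein-coding genes outside the members, took up 29.5% of the variance of ratios in H929 and 48.5% in KMS28BM. With that trend removed the messenger median was -0.21 in H929 and -0.22 in KMS28BM, with 12 of 13 below 0 in each.

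**Figure D4:**
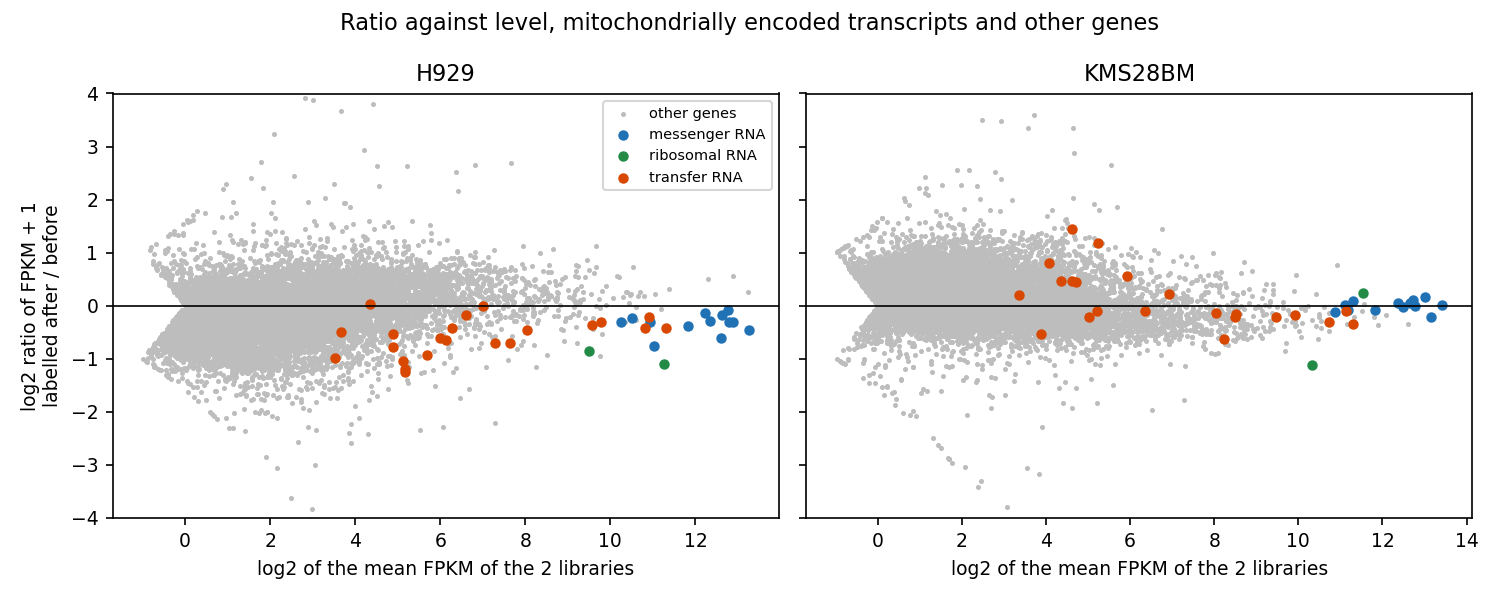
Log2 ratio of FPKM plus 1 between the libraries of a line (labelled after over labelled before), against the log2 of the mean FPKM of the pair of libraries, for mitochondrially encoded transcripts in colour and all other measured genes in grey, as deposited. The axis ends at 4 on either side, which leaves out 7 genes in H929 and 5 in KMS28BM. The messengers lie at the high end, between -0.76 and -0.09 in H929 and between -0.22 and 0.16 in KMS28BM, and scalings move all points of a panel together.

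The ribosomal RNAs had the lowest ratios of the long members in H929, and MT-RNR1 the lowest in KMS28BM. MT-RNR1, the RNA of the small ribosomal subunit, stood at 930 and 512 FPKM in H929 and at 1764 and 810 in KMS28BM. It was lower in the library labelled after sorting in both lines, by ratios of -0.86 and -1.12. MT-RNR2, the RNA of the large subunit, stood at 3332 and 1561 FPKM in H929 and at 2748 and 3249 in KMS28BM. Its ratio was -1.09 in H929 but 0.24 in KMS28BM, where it was -0.08 with the trend in base composition and length removed. The large over the small RNA came to 3.58 and 3.05 in H929 and to 1.56 and 4.01 in KMS28BM, so the KMS28BM library labelled before sorting stood apart with the smallest excess. These 2 RNAs are neighbours on the same precursor, with MT-TV between them. How much of either RNA passed an oligo-dT selection in each library was not measured.

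The transfer RNAs held the widest range of levels, with medians of 87.8 and 60.3 FPKM in H929, against 66.6 and 75.9 in KMS28BM. They are 59 to 75 bases long, against an average insert of 300 bases in these libraries, so a fragment counted for one may come from a longer RNA that still holds it. Levels before sorting had nearly the same order in both lines, with a Spearman correlation of 0.88 across the 22 transfer RNAs, which is across genes of 1 library each and carries no p. MT-TA, MT-TN, MT-TC and MT-TY, the minus-strand group printed above, made up 75.6% and 76.9% of the transfer RNA sum in H929, against 72.9% and 71.3% in KMS28BM. MT-TC stood at 2896 and 2159 FPKM in H929 and at 2824 and 2216 in KMS28BM. MT-TW, its neighbour on the other strand, stood at 15.1 and 10.4 FPKM in H929 and at 34.8 and 30.01 in KMS28BM. MT-TC was thus listed 192-fold and 208-fold above MT-TW in H929 and 81.2-fold and 73.8-fold above it in KMS28BM.

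The rest of the group was of like height. MT-TN stood at 2073 and 1549 FPKM in H929 and at 1883 and 1518 in KMS28BM. MT-TY stood at 2060 and 1781 FPKM in H929 and at 2325 and 2175 in KMS28BM. MT-TA stood at 853 and 660 FPKM in H929 and at 760 and 654 in KMS28BM. All 4 were lower after sorting, as labelled, in both lines, with ratios from -0.42 to -0.21 in H929 and from -0.35 to -0.10 in KMS28BM, except that MT-TY in H929 turned to 0.05 under the trimmed-mean scaling. The other minus-strand transfer RNAs were far lower. MT-TE, for glutamate, stood at 306 and 222 FPKM in H929 and at 386 and 332 in KMS28BM, and MT-TP, for proline, at 128.3 and 128.2 in H929 and at 279 and 253 in KMS28BM. MT-TQ, for glutamine, stood at 20.3 and 20.7 FPKM in H929 and at 9.55 and 11.1 in KMS28BM, and MT-TS1, a serine transfer RNA, at 15.5 and 7.39 in H929 and at 17.6 and 11.9 in KMS28BM. Whether the libraries kept strand is not stated, so reads of these genes and of RNA from the opposite strand at the same place cannot be told apart, and this holds for MT-ND6 too.

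MT-TL1, a leucine transfer RNA between MT-RNR2 and MT-ND1, was the highest on the plus strand. It stood at 969 and 784 FPKM in H929 and at 1023 and 903 in KMS28BM. MT-TF, for phenylalanine and next to MT-RNR1, stood at 246 and 150 FPKM in H929 and at 365 and 235 in KMS28BM. MT-TF had ratios of -0.71 and -0.63, the same direction as MT-RNR1 in both lines. MT-TV, for valine, stood at 86.2 and 54.3 FPKM in H929 and at 113 and 132 in KMS28BM, ratios of -0.66 and 0.23, the latter turning to -0.01 under the trimmed-mean scaling. MT-TT, for threonine and next to MT-CYB, stood at 193 and 118 FPKM in H929 and at 389 and 348 in KMS28BM.

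Between MT-ND4 and MT-ND5 lie 3 adjacent transfer RNAs, and 2 of them, MT-TL2 and MT-TS2, had the largest differences in ratio between the lines, 2.70 and 2.11. MT-TL2, the second leucine transfer RNA, stood at 51.4 and 20.9 FPKM in H929 and at 12.7 and 36.2 in KMS28BM. Its ratio was -1.26 in H929, with a 95% counting interval from -1.83 to -0.69, and 1.45 in KMS28BM, with an interval from 0.70 to 2.19. MT-TS2, the second serine transfer RNA, stood at 67.4 and 34.997 FPKM in H929 and at 22.8 and 53.1 in KMS28BM, with ratios of -0.93 (-1.43 to -0.43) and 1.19 (0.56 to 1.81). MT-TH, for histidine, stood at 76.9 and 50.2 FPKM in H929 and at 49.2 and 73.0 in KMS28BM, with ratios of -0.61 and 0.56. In each of the 3 the higher library was the one labelled before sorting in H929 and the one labelled after in KMS28BM. The signs held under each scaling tried, though the values stand for few fragments, 33.9 and 19.0 for MT-TL2 in the lower library of each line. MT-ND4 and MT-ND5 on either side had ratios of -0.17 and -0.23 in H929 and 0.06 and -0.08 in KMS28BM, far smaller than those of the transfer RNAs between them. Intervals cover counting error only and rest on the estimated depth.

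Of the other low plus-strand transfer RNAs, MT-TK, MT-TG, MT-TR and MT-TM were below 0 in H929 and above 0 in KMS28BM as deposited, and MT-TD and MT-TW below 0 in both lines. MT-TK, for lysine, stood at 50.8 and 21.6 FPKM in H929 and at 20.3 and 28.5 in KMS28BM, ratios of -1.20 and 0.47. MT-TG, for glycine, stood at 47.4 and 22.4 FPKM in H929 and at 22.2 and 30.6 in KMS28BM, ratios of -1.05 and 0.44. MT-TR, for arginine, stood at 35.4 and 24.2 FPKM in H929 and at 11.9 and 21.6 in KMS28BM, ratios of -0.53 and 0.81. In KMS28BM the intervals of these 3 ratios spanned 0, as did that of MT-TR in H929. With the trend in base composition and length removed, MT-TG turned to -0.01 and MT-TK was 0.0091 in KMS28BM, and MT-TR was -0.0089 in H929. MT-TM, for methionine, stood at 89.5 and 66.2 FPKM in H929 and at 17.1 and 24.0 in KMS28BM, with both H929 values above both KMS28BM values, again without a stated common normalization. MT-TD, for aspartate, stood at 38.0 and 21.8 FPKM in H929 and at 38.4 and 35.8 in KMS28BM, and MT-TI, for isoleucine, at 103 and 91.6 in H929 and at 84.0 and 78.8 in KMS28BM.

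By strand, as deposited, the 14 plus-strand transfer RNAs had a median ratio of -0.68 in H929 and 0.34 in KMS28BM, and the 8 minus-strand ones -0.40 and -0.22. Medians by strand were not taken with the trend in base composition and length removed. With it removed, MT-TV turned to -0.02 and MT-TG to -0.01 in KMS28BM, and MT-TK fell to 0.0091. MT-TM and MT-TR stayed above 0 there, at 0.36 and 0.35. No contrast between the strands is drawn from these medians. Of the 22, 21 were below 0 in H929 and 13 in KMS28BM. The counting interval spanned 0 for 6 of the 37 members in H929, all transfer RNAs, and for 13 in KMS28BM, 12 of them transfer RNAs. Transfer RNAs stood for as few as 11.6 fragments in H929 and 14.6 in KMS28BM, while each messenger and ribosomal RNA stood for at least 11129 and 16063. The member outside the transfer RNAs whose interval spanned 0 was MT-ND3 in KMS28BM, at -0.02 to 0.04. The spread between cultures is not shown by 1 library per group.

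**Figure D5:**
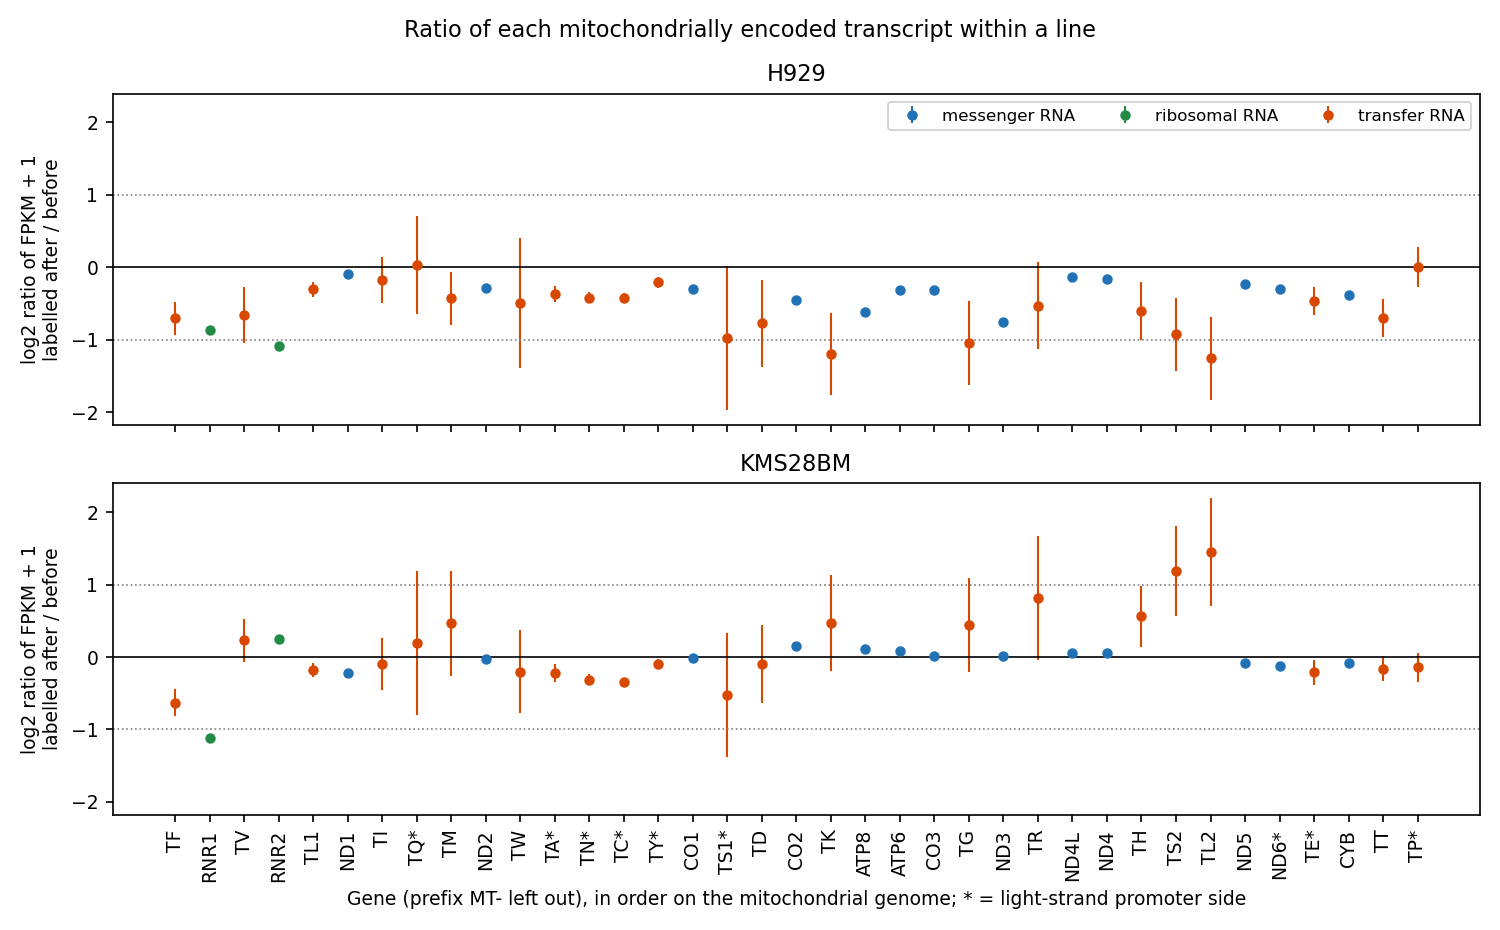
Log2 ratio of FPKM plus 1 between the libraries of a line (labelled after over labelled before), for each of the 37 members in genome order, as deposited, with 95% counting intervals as bars and dotted lines at 2-fold. In H929 36 points lie below 0, and in KMS28BM 20 do (29 in each line under the trimmed-mean scaling). The neighbours MT-TH, MT-TS2 and MT-TL2 lie below 0 in H929 and above it in KMS28BM.

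Nuclear chromosomes hold old copies of mitochondrial genes, and reads that match both places can be credited to either. Of 408 genes named as such copies, 371 were at the floor in all 4 libraries and 10 reached 1 FPKM in any, 6 of them on chromosome 1. MTATP6P1 was the highest, at 1433 and 1158 FPKM in H929 and at 1213 and 1206 in KMS28BM, and 46.7% of the 50-base words of MT-ATP6 also occur in another annotated gene. It made up 39.8% and 39.9% of the joint sum with MT-ATP6 in H929, against 32.99% and 31.6% in KMS28BM. With the copy added to MT-ATP6, the excess of MT-ATP8 was 2.08-fold and 1.69-fold in H929 and 1.77-fold and 1.84-fold in KMS28BM. MTND2P28 stood at 663 and 501 FPKM in H929 and at 711 and 580 in KMS28BM. MTCO1P12 stood at 422 and 189 FPKM in H929 and at 383 and 231 in KMS28BM, ratios of -1.16 and -0.73 against -0.30 and -0.02 for MT-CO1 itself. MTND1P23 stood at 81.7 and 76.0 FPKM in H929 and at 101 and 81.9 in KMS28BM. The other 6 copies, MTCO3P12, MTCO2P12, MTND4P12, MTND6P4, MTCO2P2 and MTRNR2L12, stood at 30.6 FPKM or less. MT-RNR1, MT-ND3, MT-ND4L and all the transfer RNAs share no 50-base word with another annotated gene. Nuclear sequence outside annotated transcripts was not searched, so a split of their reads with such sequence could not be seen.

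Whether a gene differed alike in H929 and KMS28BM was tested with limma over 12294 genes, each line serving as its own control, with 1 residual degree of freedom. After Benjamini-Hochberg adjustment limma called 0 of the 37 members, against 0.0488% of all genes called higher and 0.0651% called lower. At an unadjusted p under 0.05 limma named 1 member, against 1.5% of all genes. That was MT-RNR1, at a shared log2 change of -0.99 with a standard error of 0.36, lower in both lines, with a limma adjusted p of 0.999995. Of the 37 shared estimates 32 were below 0, with a median of -0.21 against 0.01 over all genes. The share of all genes below 0 in this fit is not given here. The signs of the 2 lines were the same and negative for 20 members and opposite for 16. With 36 members below 0 in H929, this split mostly repeats the signs in KMS28BM. In the authors' deposited table, the KMS28BM comparison marks MT-RNR1 as significant, with a log2 value of -1.12, a p-value of 0.0484 and a q-value of 0.998. The authors' deposited table marks no member in H929, where it marks 1.57% of all genes, against 0.967% in KMS28BM.

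Most nuclear partners of the mitochondrial subunits did not share the sign of the mitochondrial messengers in H929. In H929, nuclear genes of complexes I, III, IV and ATP synthase had medians of 0.24, 0.37, 0.35 and 0.21, with 6 of 37, 1 of 9, 2 of 11 and 4 of 18 measured genes below 0, while all 13 mitochondrial messengers were below 0. In KMS28BM the medians were -0.19, -0.05, -0.34 and -0.04, with 23 of 37, 5 of 9, 8 of 11 and 10 of 18 below 0. Of all genes measured, 58.3% were below 0 in H929 and 40.6% in KMS28BM. The medians of these nuclear partners kept their signs under the trimmed-mean scaling and with the trend in base composition removed. As deposited, the 108 measured genes outside the members that reached 500 FPKM had medians of the same signs, 0.18 in H929 and -0.22 in KMS28BM. The directions are thus not particular to the nuclear partners. As examples, COX6A1 of complex IV stood at 158 and 228 FPKM in H929 and at 603 and 532 in KMS28BM. UQCRFS1, the iron-sulfur subunit of complex III, stood at 33.9 and 48.3 FPKM in H929 and at 56.3 and 61.5 in KMS28BM. COX7C of complex IV went with the mitochondrial messengers in H929, at 134 and 90.04 FPKM, and stood at 145 and 92.2 in KMS28BM. Genes of protein import, which bring these subunits in, had medians of 0.42 in H929 and -0.28 in KMS28BM. Of their 20, 5 and 12 were below 0, beside the same shares of all genes.

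Genes that make and keep mitochondrial RNA showed no common direction, and limma called 0 members of any list with its adjusted p. The transcription list had medians of -0.24 over 9 genes in H929 and 0.26 over 7 in KMS28BM, which turned to 0.17 and -0.02 with the trend removed. POLRMT, the mitochondrial RNA polymerase, stood at 23.1 and 33.6 FPKM in H929 and at 27.7 and 21.6 in KMS28BM, opposite in ratio to the messengers of H929. TFAM, which packs mitochondrial DNA and bends its promoters, stood at 2.54 and 1.60 FPKM in H929 and at 2.05 and 6.02 in KMS28BM. TFB2M, which opens the promoters, stood at 9.91 and 7.92 FPKM in H929 and at 4.71 and 7.87 in KMS28BM. As deposited, TFAM and TFB2M were thus lower after sorting in H929 and higher in KMS28BM.

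LRPPRC and SLIRP form the complex that protects mitochondrial messengers from decay. LRPPRC stood at 5.39 and 2.82 FPKM in H929 and at 3.55 and 9.12 in KMS28BM, ratios of -0.75 and 1.15. SLIRP stood at 22.3 and 29.8 FPKM in H929 and at 21.4 and 24.4 in KMS28BM, ratios of 0.40 and 0.18. The 2 partners thus had opposite signs in H929. The whole list of polyadenylation, stability and turnover had medians of -0.06 and 0.27 over 12 genes in each line, which became 0.27 and -0.13 with the trend removed. For excision and processing, which includes ELAC2, the enzyme that trims transfer RNA 3′ ends, the medians were -0.05 over 19 genes and -0.05 over 20, the first turning to 0.15 with the trend removed. ELAC2 itself stood at 8.91 and 16.2 FPKM in H929 and at 19.0 and 17.8 in KMS28BM.

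The remaining lists had medians between -0.19 and 0.29. Translation factors had medians of -0.19 over 16 genes in H929 and 0.29 over 14 in KMS28BM, which became 0.13 and -0.07 with the trend removed. GUF1, a translation factor, stood at 5.75 and 1.997 FPKM in H929 and at 2.19 and 4.27 in KMS28BM. OXA1L, at the other end of that list, stood at 21.5 and 28.5 FPKM in H929 and at 27.8 and 30.2 in KMS28BM. Genes of mitochondrial DNA replication and upkeep had medians of 0.08 over 18 genes and -0.04 over 15. Biogenesis regulators had medians of -0.08 and 0.24 over 8 genes each, which became 0.22 and -0.02 with the trend removed. YY1 among them stood at 12.4 and 4.96 FPKM in H929 and at 6.60 and 10.7 in KMS28BM. Proteases and chaperones had medians of 0.15 over 13 genes and 0.21 over 12. HSPD1, the matrix chaperonin, stood at 44.3 and 40.9 FPKM in H929 and at 102 and 194 in KMS28BM. Mitophagy genes had medians of 0.04 over 9 genes and 0.02 over 10, which became -0.04 and -0.10 with the trend removed. BNIP3L, a receptor that marks mitochondria for removal, stood at 11.7 and 3.64 FPKM in H929 and at 10.4 and 17.3 in KMS28BM. It was the only 1 of the 9 that was 2-fold lower in H929. MAP1LC3B, at the other end, stood at 13.3 and 16.3 FPKM in H929 and at 12.6 and 27.3 in KMS28BM.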

How the data were processed

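The authors deposited, per the file headers, 1 table per line with FPKM of each library, a fold ratio, its log2, a p-value and a q-value for 60612 genes. Per the labels' protocols, RNA extracted with Trizol went through oligo-dT beads, fragmentation and paired-end sequencing, though the same text names a poly(A)- fraction and adipose RNA, so the selection is uncertain. The submitters' processing notes name Bowtie 0.12.2, HISAT2 2.0 and StringTie 1.3.0 without roles, and the build mm8, a mouse build that does not match the human identifiers. The sources used here name neither the test behind the deposited p-value and q-value nor a normalization common to both tables, so the lines are compared through ratios within a line or shares within a library, and FPKM of the 2 lines are otherwise set side by side only. Nothing says that the libraries came from separate cultures.

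Members were taken by name, and the gene lists by function. Both were chosen with earlier results of these data known. Genes named in the text are all members, nuclear copies at 1 FPKM or more in any library, POLRMT, TFAM, TFB2M, LRPPRC and SLIRP, and members of each list at either end by mean ratio among those at 5 FPKM or more in any library. Ratios used a pseudocount of 1 and were taken where a library of the line reached 1 FPKM. Of the identifiers, 58394 matched GENCODE 29. Depth was estimated from the pile-up, within 1%, of the product of FPKM and length at the value of 1 fragment, over single-transcript genes. Counting intervals are normal approximations on the log scale at 95%. The shared change was fitted with limma 3.58.1 in R 4.3.3, checked on simulated data. Tables and figures were made in Python 3.11.15 with pandas 2.3.3, numpy 2.4.6 and matplotlib 3.10.9. Alternatives were other pseudocounts (0.1 and 5), filters (none and 5 FPKM), scalings, denominators, fold thresholds of 1.5 and 4, and subtraction of a smooth (cubic) dependence on GC content and on log2 transcript length. Its fit used protein-coding genes outside the members and begins at 625 bases in H929 and 616 in KMS28BM. Shorter members were held at that length. The fit also begins at 34.1% GC in both lines, and members below that were held there. MT-TG, MT-TK and MT-TR were held in both ways.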

Additional observations from a re-analysis of the deposited data

Results flagged for a closer look

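In 5 transcripts the ratios of the lines pointed in opposite directions and lay far apart, with a ratio of 2-fold or more in at least 1 line. The ratio in KMS28BM minus that in H929 was 2.70 for MT-TL2, 2.11 for MT-TS2, 1.66 for MT-TK, 1.49 for MT-TG and 1.34 for MT-RNR2 on the log2 scale. With 1 pair of libraries per line these differences were not tested. MT-TR lay as far apart as MT-RNR2, at -0.53 in H929 and 0.81 in KMS28BM, a difference of 1.34, but was 2-fold in neither line. The transfer RNAs among the 5 stood below 100 FPKM in every library, and the intervals of MT-TK and MT-TG in KMS28BM spanned 0. Of all 11 transfer RNAs below 100 FPKM in every library, 10 had ratios below 0 in H929, where 58.3% of all genes did, and 3 in KMS28BM, where 40.6% did. MT-RNR2 stood for far more fragments, and its ratio in KMS28BM was -0.08, and that of MT-TG -0.01, with the trend in base composition and length removed.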

How the results depend on the processing

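The share in H929 was lower in the library labelled after sorting under each choice of members and denominator, by -5.57 points among protein-coding genes, -5.90 without immunoglobulin genes, -6.005 among genes at 1 FPKM or more, -2.36 weighted by length, -4.49 for messengers alone, -6.12 with nuclear copies added and -5.15 without transfer RNAs. In KMS28BM the same choices gave 1.03, 0.585, 0.742, -0.258, 1.03, 0.636 and 0.967 points, so weighting by length reversed it. The median ratio in H929 ran from -0.53, rescaled without mitochondrial and immunoglobulin genes, to -0.17 under the trimmed-mean scaling. In KMS28BM the median, -0.03, turned to 0.046 when so rescaled and to 0.0099 for messengers alone or without transfer RNAs, and it was -0.27 under the trimmed mean and with the trend removed. The count below 0 was 29 to 37 in H929 and 18 to 29 in KMS28BM over the scalings, and 13 and 6 among messengers alone. The count of members 2-fold lower in H929, 4 as deposited, was 1 under the trimmed mean, 14 at 1.5-fold and 0 at 4-fold. With the trend removed the count was 1, MT-TS1, which was not among the 4. In KMS28BM the member lower became 2 at 1.5-fold and 0 at 4-fold, and the 2 higher became 1 under the trimmed mean and 0 at 4-fold. The limma count of members was 0 in all 7 settings. The cause of these shifts was not tested. The choices of messengers alone and of leaving out transfer RNAs, for ratios and the latter also for shares, as well as adding nuclear copies to single members and differences from the messenger median, were made after the data were seen. No paired analysis was possible because the labels carry no replicate numbers, beyond the pairing of the libraries of a line that the limma fit already holds, and with 1 library per group no replicate could be left out.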
